A study of Psophocarpus tetragonolobus with 12 samples.

Results

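The genes described here were 8 seed storage and seed maturation protein genes of winged bean (Psophocarpus tetragonolobus), followed through pod development. They were taken by gene number from a table of 30392 genes. They comprised a tandem pair matched to 11S globulins (Psote03G0078700 and Psote03G0078800), a vicilin-like gene (Psote04G0317000), a pair matched to seed maturation proteins of Medicago (Psote04G0062600 and Psote05G0226200) and 3 storage protein candidates from the quantitative trait loci (QTL) that the study mapped for seed storage protein (Psote02G0319700, Psote02G0329200 and Psote03G0382500). All 8 were among 25 globulin and legumin genes listed by the study, and all 8 reached at least 1 FPKM (mapped fragments scaled to transcript length and to library size) at some stage. They had been chosen with their stage values already known, as early and late genes, so that their levels and directions are given below as a description and without a test.

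Pods of the FP15 genotype were sampled 15, 30, 37 and 45 days after anthesis, the opening of the flower, with 3 RNA-seq libraries per stage. The stages are named by these days. FP15 is a purple-podded line and was the maternal parent of the mapping cross of the study. The libraries used here hold no other genotype, treatment or growth condition, and every plant was kept in a growth chamber at 26/20 °C with a 12-h day. The 3 libraries of a stage came from different individual plants, and the RNA was polyA-selected without keeping strand. The labels name the tissue as pod throughout, whereas the methods of the study mention pod and seed tissues. The table gives a single FPKM value per gene and stage, rounded to a whole number, so that neither a spread between plants nor a p-value could be computed. The only error attached to the values below is the rounding of 0.5 FPKM to either side. The reads had been placed on the assembly of Ma3, the green-podded paternal parent, and gene positions refer to that assembly.

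Storage globulins are the main nitrogen reserve of legume seeds. The 11S legumins and the 7S vicilins are made on the rough endoplasmic reticulum of the filling cotyledon and packed into protein bodies, and they are broken down again at germination. Seed maturation proteins accumulate later, as the seed begins to dry, and many of them belong to the late embryogenesis abundant proteins, which are thought to protect cells against water loss. In Arabidopsis both classes are under the control of the transcription factors ABI3 and ABI5, which act in abscisic acid signalling.

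The pod on Day 15 and the pod on Day 45 held nearly equal summed levels of the 8 genes, at 228 and 230 FPKM, but the sums were made up of different genes. The sum was 105 FPKM on Day 30 and 151 FPKM on Day 37, so that the lowest point lay on Day 30. The 11S globulin gene Psote03G0078700 made up 64.9% of the Day 15 sum (63.9 to 65.6% by rounding) and 5.22% of the Day 45 sum (4.94 to 5.49%). The vicilin-like gene and the seed maturation pair together made up 13.6% on Day 15, 16.2% on Day 30, 57.6% on Day 37 and 88.7% on Day 45. The majority therefore passed from the 11S gene to the vicilin-like and seed maturation genes between Day 30 and Day 37. Within the later set, Psote05G0226200 alone held 49.6% of the Day 45 sum, the vicilin-like gene 25.2% and Psote04G0062600 13.9%. These shares compare FPKM, which is scaled to gene length, between genes within a stage. The 8 genes together were 0.0321% of the summed FPKM of all genes on Day 15, 0.0135% on Day 30, 0.0190% on Day 37 and 0.0305% on Day 45.

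**Figure D1:**
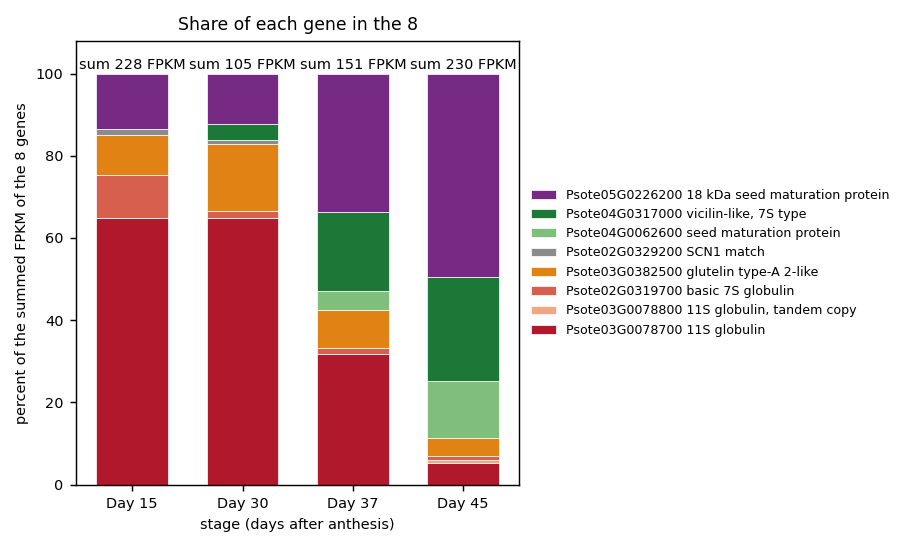
Share of each of the 8 genes in their summed FPKM (vertical axis, percent) at the 4 stages in days after anthesis (horizontal axis), with the sum printed above each bar. The 11S globulin gene Psote03G0078700 fills 64.9% of the bar on Day 15 and 5.22% on Day 45, when the vicilin-like and seed maturation genes fill 88.7%.

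From Day 15 to Day 45, 4 of the 8 genes were higher and 4 were lower by at least 2-fold, counted as a difference of 1 or more in log2(FPKM+1). Among all 22459 genes that reached 1 FPKM in a stage, 14.3% were higher and 19.4% were lower by the same measure. Since the genes had been picked for this contrast, nothing is read from their count. The higher genes were the vicilin-like gene, both seed maturation genes and the second 11S copy, and the lower genes were the first 11S copy and the 3 QTL genes. All 4 contrasts given here come from the same 4 stage values, so that neighbouring contrasts share a stage.

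The early pattern was led by Psote03G0078700, which lies on Chr03.1 from 14189235 to 14190774 and is matched to soybean genes named 13S globulin, a name given to some proteins of the 11S class. Its levels were 148 FPKM on Day 15, 68 FPKM on Day 30, 48 FPKM on Day 37 and 12 FPKM on Day 45. The level was lower at each stage than at the stage before, and no step could be an effect of rounding. The Day 15 level was 12.3 times the Day 45 level, a difference of -3.52 in log2(FPKM+1) with rounding limits of -3.58 and -3.46. The decline was uneven. The log2 difference was -1.11 over the 15 days to Day 30 and -0.49 over the 7 days to Day 37, which is -0.074 and -0.071 per day. It was then -1.91 over the last 8 days, or -0.239 per day, which lay at percentile 0.247 of the differences of all measured genes for that step. Its level stood at percentile 97.1 of the measured genes on Day 15, 91.0 on Day 30, 85.8 on Day 37 and 51.9 on Day 45. Of all measured genes, 309 had a larger fall from Day 15 to Day 45. A decline at every step was common, in 2010 measured genes. Of these, 80 including this one began at 100 FPKM or more and ended at least 12-fold lower. The 12-fold limit lay close to the ratio of 12.3 of this gene, so that the count of 80 is no measure of rarity.

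The second 11S copy, Psote03G0078800, begins 15545 bp beyond the end of the first (Chr03.1, 14206319 to 14208096) and is matched to an 11S globulin of chickpea. It was listed at 0 FPKM on Day 15, Day 30 and Day 37 and at 2 FPKM on Day 45. It was thus seen only at the stage at which its tandem partner was lowest. A listed 0 can stand for any level below 0.5 FPKM, so that the first copy was at least 295 times higher on Day 15, at least 135 times higher on Day 30 and at least 95 times higher on Day 37. At Day 45 the first copy was 6.0 times higher, with rounding limits of 4.6 and 8.33. The log2 difference of the second copy between Day 15 and Day 45 was 1.58, but rounding allows values from 0.74 to 1.81, and at the lower limit it is short of 2-fold. The treatment of reads that match both copies equally well was not stated, so that the split between the copies is uncertain.

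Among the late genes, the vicilin-like gene Psote04G0317000 (Chr04.3, 15746247 to 15748526) had the largest difference. It is matched to PAP85, a vicilin-like protein of Arabidopsis, and to the alpha subunit of soybean beta-conglycinin, the main 7S storage protein of that crop. Its levels were 0 FPKM on Day 15, 4 FPKM on Day 30, 29 FPKM on Day 37 and 58 FPKM on Day 45. Each stage was higher than the stage before. The log2 difference was 2.32 up to Day 30, 2.58 up to Day 37 and 0.98 up to Day 45, the last of which is just under 2-fold. Which of the first 2 steps is larger depends on the pseudocount, since the gene was listed at 0 on Day 15 (3.17 and 2.71 with a pseudocount of 0.5). From Day 15 to Day 45 it was 5.88, with rounding limits of 5.29 and 5.89, and the Day 45 level was at least 115 times the Day 15 level. Of the measured genes, 38 had a larger rise, and 16 including this one went from a listed 0 on Day 15 to 58 FPKM or more on Day 45. The limit of 58 FPKM was the level of the gene itself, so that the count of 16 is no measure of rarity. On Day 45 the gene stood at percentile 88.7 of the levels of all measured genes.

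Psote04G0062600 (Chr04.1, 11435996 to 11436897), matched to a seed maturation protein of Medicago, came on last among the genes that reached 10 FPKM. It was listed at 0 FPKM on Day 15 and on Day 30, and was at 7 FPKM on Day 37 and 32 FPKM on Day 45. The gene was therefore seen at the later pair of stages only. The log2 difference was 3.0 from Day 30 to Day 37 and 2.04 from Day 37 to Day 45, or 0.429 and 0.256 per day. From Day 15 to Day 45 it was 5.04, with rounding limits of 4.44 and 5.07, and the Day 45 level was at least 63 times the Day 15 level. In all, 72 measured genes were listed at 0 on Day 15 and Day 30 and were higher at each later stage. With its own Day 45 level of 32 FPKM as the limit, 2 genes were listed at 0 at both early stages and reached that limit on Day 45. The other was Psote05G0175000, at 2 FPKM on Day 37 and 34 FPKM on Day 45, for which no annotation was at hand. Since the limit was the level of the gene itself, this count is no measure of rarity.

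Psote05G0226200 (Chr05.3, 3463075 to 3463873), matched to an 18 kDa seed maturation protein of Medicago, differed from the other late genes in that it was already present on Day 15. Its levels were 31 FPKM on Day 15, 13 FPKM on Day 30, 51 FPKM on Day 37 and 114 FPKM on Day 45. It was lowest on Day 30, at which point neither of the other late genes that reached 10 FPKM was above 4 FPKM, and it was the highest of the 8 genes on Day 37 and on Day 45. The log2 difference was -1.19 up to Day 30, 1.89 up to Day 37 and 1.15 up to Day 45, each step being larger than rounding allows for. The Day 45 level was 3.68 times the Day 15 level (log2 difference 1.85, rounding limits 1.82 and 1.87) and 8.77 times the Day 30 level. Across all measured genes, 6 were at least 2-fold lower on Day 30 than on Day 15 and at least 2-fold higher on Day 45 than on Day 15. The other 5 of them were at 1 or 2 FPKM on Day 15 and at most 10 FPKM on Day 45, so that rounding weighs heavily on their values. A second count took genes at 10 FPKM or more throughout, with a 2-fold fall to Day 30 and a rise of 2-fold or more from Day 30 to Day 45. It held 6 genes, including this one, so that such a dip was not particular to it.

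**Figure D2:**
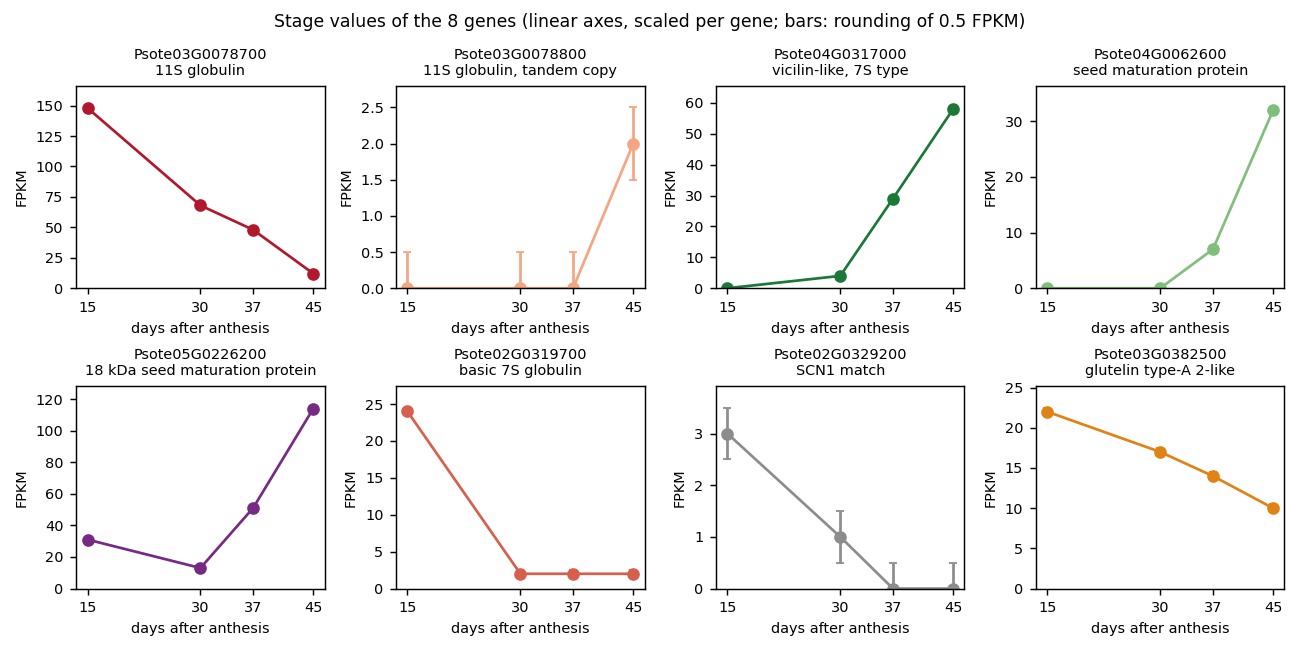
Level of each of the 8 genes in FPKM (vertical axes, linear and scaled per gene) against days after anthesis, with 1 pooled value per stage and bars for rounding of 0.5 FPKM. Psote03G0078700 goes from 148 to 12 FPKM without a turn, the vicilin-like gene from 0 to 58 FPKM, and Psote05G0226200 has its lowest value, 13 FPKM, on Day 30.

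The order of the 8 genes turned over in the course of pod development. At Day 15 Psote03G0078700 was 4.77 times as high as Psote05G0226200, the next gene in order, and on Day 30 it was 4.0 times as high as Psote03G0382500. At Day 37 Psote05G0226200 was ahead by a narrow margin, with the 11S gene at 0.941 of its level (0.922 to 0.960 by rounding). At Day 45 Psote05G0226200 was 9.5 times as high as the 11S gene. Against the vicilin-like gene, the 11S gene was 17 times as high on Day 30 (15.0 to 19.6 by rounding) and 1.66 times as high on Day 37, and on Day 45 the vicilin-like gene was 4.83 times as high. By these single values, the seed maturation gene was above the 11S gene on Day 37 and Day 45, and the vicilin-like gene on Day 45 only. With no spread between plants known, the narrow margin on Day 37 does not date the first of these crossings. The late genes kept their own order from Day 30 on, with Psote05G0226200 above Psote04G0317000 and this above Psote04G0062600. At Day 45 the ratio of the first to the second was 1.97, and that of the second to the third was 1.81. Neighbours in the order that rounding could exchange were confined to genes at 2 FPKM or less.

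The 3 QTL genes were all lower on Day 45 than on Day 15, in different ways. Psote02G0319700 (Chr02.5, 25209756 to 25218919) lies in qSSP-4 and is matched to the basic 7S globulin of soybean, a protein related in sequence to aspartic proteases and distinct from the vicilins. Its levels were 24 FPKM on Day 15 and 2 FPKM on Day 30, Day 37 and Day 45. The entire difference fell before Day 30, at -3.06 on the log2(FPKM+1) scale (rounding limits -3.35 and -2.81), at percentile 0.588 of the differences of all measured genes for that step. There were 79 measured genes that were at least 10-fold lower on Day 30 than on Day 15 and stayed within 1 FPKM afterwards. Its tandem neighbour Psote02G0319600, 10233 bp away and also matched to a basic 7S globulin, was listed at 0 FPKM at all 4 stages.

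Psote03G0382500 (Chr03.5, 25787725 to 25789358) lies in qSSP-2 and is matched to a glutelin type-A 2-like gene of chickpea. Glutelins of this type are the rice relatives of the 11S globulins. Its levels were 22 FPKM on Day 15, 17 FPKM on Day 30, 14 FPKM on Day 37 and 10 FPKM on Day 45. The level was lower at every stage than at the stage before, but in none of the 3 steps by 2-fold, with log2 differences of -0.35, -0.26 and -0.45. From Day 15 to Day 45 the log2 difference was -1.06, with rounding limits of -1.16 and -0.97, so that rounding alone could take it below 2-fold. The ratio of Psote03G0078700 to this gene narrowed from 6.73 on Day 15 to 1.2 on Day 45.

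The third QTL gene, Psote02G0329200 (Chr02.5, 26622574 to 26625069, in qSSP-4), was the lowest of the QTL genes. It was at 3 FPKM on Day 15 and 1 FPKM on Day 30 and was listed at 0 FPKM on Day 37 and Day 45. These levels lie close to the rounding, and its log2 difference of -2.0 from Day 15 to Day 45 has rounding limits of -2.17 and -1.22. The study lists it as a globulin, but its Arabidopsis match is SCN1, which is not a storage protein. It also overlaps the neighbouring gene Psote02G0329300 (26624563 to 26625075), which was listed at 0 FPKM at all stages, and reads without strand cannot be told apart between overlapping genes.

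Step by step, the 8 genes moved at different times. Of the 8, 1 was higher and 4 were lower from Day 15 to Day 30, where 9.47% of all measured genes were higher and 13.7% were lower (2126 and 3086 genes, or 1362 and 3225 with each stage at the same sum). From Day 30 to Day 37, 3 were higher and 1 was lower, where 3.47% of measured genes were higher and 3.69% were lower (780 and 828 genes, or 214 and 281 with each stage at the same sum and 219 and 828 after scaling by median of ratios). The 3 higher genes were the vicilin-like gene and both seed maturation genes, at or above percentile 99.8 of all measured changes for that step, and the lower gene was Psote02G0329200, going from 1 to a listed 0. From Day 37 to Day 45, 3 were higher and 1 was lower, where 3.53% of measured genes were higher and 5.13% were lower (792 and 1152 genes, or 811 and 364 with each stage at the same sum and 792 and 385 after scaling by median of ratios). Here the higher genes were the seed maturation pair and the second 11S copy, and the lower gene was Psote03G0078700. Each of these steps went into the choice of the genes, and the shares of all genes are given for scale only.

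**Figure D3:**
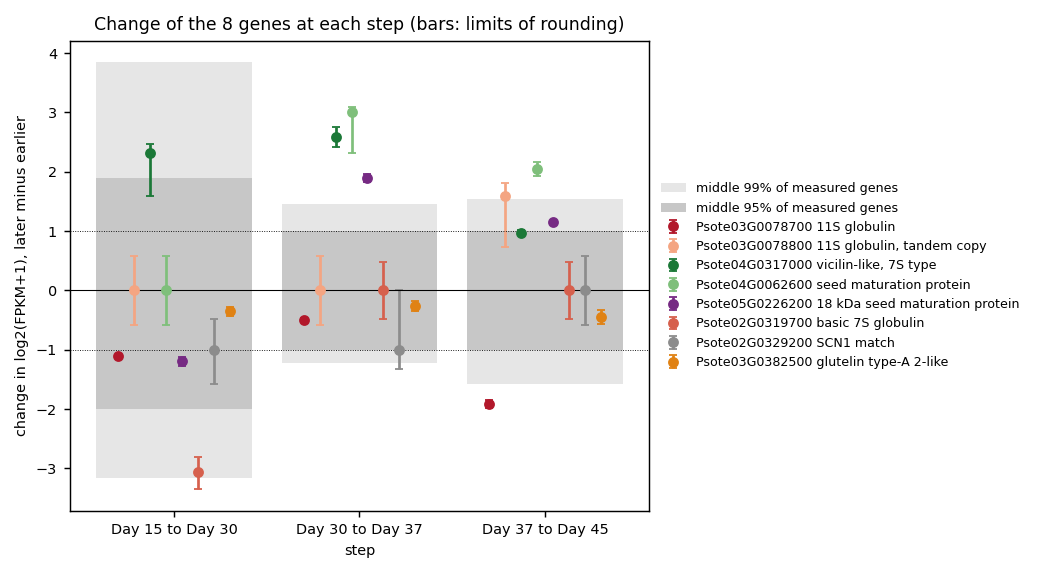
Difference in log2(FPKM+1), later minus earlier stage (vertical axis), of each of the 8 genes at each of the 3 steps (horizontal axis), with bars for the limits of rounding, dotted lines at 2-fold and grey bands for the middle 95% and 99% of the 22459 measured genes. Between Day 30 and Day 37 the vicilin-like gene (2.58), Psote04G0062600 (3.0) and Psote05G0226200 (1.89) lie above the wider band. Between Day 37 and Day 45 Psote03G0078700 (-1.91) lies below it, Psote04G0062600 (2.04) above it and Psote03G0078800 (1.58) at or above its upper edge.

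The 8 genes stood within a wider family of 25 listed globulin and legumin genes, of which 18 reached 1 FPKM in a stage. Of the 18, 7 were higher on Day 45 than on Day 15, 8 were lower and 3 were neither, with a median log2 difference of -0.14 against 0 over all measured genes, of which 14.3% were higher and 19.4% were lower. Of the 10 measured genes outside the 8, 3 were higher, 4 were lower and 3 were neither. The 8 genes made up 70.4% of the summed FPKM of the 25 on Day 15, 46.7% on Day 30, 52.4% on Day 37 and 63.5% on Day 45. At the single steps, 2 of the 18 were higher and 6 lower up to Day 30 (9.47% and 13.7% of all measured genes). Up to Day 37, 5 were higher and 1 lower (3.47% and 3.69%), and up to Day 45, 4 were higher and 3 lower (3.53% and 5.13%). The 18 include the 8 genes chosen as early and late, so that nothing is read from the counts over the 18. Of the 10 genes outside the 8, 1 was higher and 2 were lower up to Day 30. Up to Day 37, 2 of the 10 were higher and 0 lower, and up to Day 45, 1 was higher and 2 were lower.

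None of the other 11S, legumin and glutelin matches had a decline as large as that of the early 11S gene. Psote01G0067700, matched to legumin type B-like genes of soybean and thus to the same 11S class, was at 39 FPKM on Day 15, 38 FPKM on Day 30, 42 FPKM on Day 37 and 32 FPKM on Day 45, a log2 difference of -0.28. Psote03G0078700 was 3.79 times as high as this gene on Day 15, 1.79 times on Day 30, 1.14 times on Day 37 and 0.375 times on Day 45. With the glutelin-like gene, the 11S and legumin matches came to 4 genes, of which 1 was higher, 2 were lower and 1 was neither. Among all measured genes, 14.3% were higher and 19.4% were lower. All but Psote01G0067700 had been chosen as early or late genes. The summed level of the 4 was 209 FPKM on Day 15 and 56 FPKM on Day 45, of which Psote03G0078700 held 148 and 12 FPKM.

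Both vicilin and globulin-1 matches were higher on Day 45 than on Day 15, where 14.3% of all measured genes were higher. Their sum went from 2 to 75 FPKM. The vicilin-like gene, which had been chosen as a late gene, made up 58 of the 75 FPKM. Beside the vicilin-like gene, this group held Psote01G0296200, matched to a globulin-1, which is a 7S vicilin-type globulin in maize. It was at 2 FPKM on Day 15 and Day 30, 16 FPKM on Day 37 and 17 FPKM on Day 45 (log2 difference 2.58). Its difference per day was largest from Day 30 to Day 37, as was that of the vicilin-like gene in log2(FPKM+1).

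Of 5 seed maturation protein matches, 4 were measured, of which 3 were higher on Day 45 than on Day 15 and 1 was neither. Of all measured genes, 14.3% were higher. The seed maturation pair, which had been chosen as late genes, was among the 3, so that nothing is read from this count. Their sum was 57 FPKM on Day 15, 60 FPKM on Day 30, 107 FPKM on Day 37 and 196 FPKM on Day 45. The third higher gene, Psote04G0317500, was listed at 0 FPKM on Day 15 and Day 30 and was at 1 FPKM on Day 37 and 8 FPKM on Day 45 (log2 difference 3.17). The exception was Psote06G0400900, matched to the seed maturation protein PM36, at 26, 47, 48 and 42 FPKM over the 4 stages (log2 difference 0.67). Psote05G0226200 was at 1.19 times the level of Psote06G0400900 on Day 15, 0.277 times on Day 30, 1.06 times on Day 37 and 2.71 times on Day 45. The dip on Day 30 was thus not shared by Psote06G0400900, which is matched to a different seed maturation protein. The other match to an 18 kDa seed maturation protein, Psote04G0240700, was listed at 0 FPKM at all 4 stages.

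All 4 measured basic 7S globulin matches, of 6 listed, were lower on Day 45 than on Day 15, and their sum went from 36 to 4 FPKM, where 19.4% of all measured genes were lower. Since Psote02G0319700 had been chosen as an early gene, nothing is read from this count or this sum. It made up 24 of the 36 FPKM on Day 15. The next was Psote05G0235800, at 9 FPKM on Day 15, 6 FPKM on Day 30, 3 FPKM on Day 37 and 2 FPKM on Day 45, a slower decline than that of Psote02G0319700. The other measured matches, Psote04G0139200 and Psote04G0319400, were at 2 and 1 FPKM on Day 15 and listed at 0 afterwards, and rounding could take both below 2-fold.

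Of 3 SCN1 matches 2 were measured, of which 1 was higher and 1 was lower on Day 45 than on Day 15. Of all measured genes, 14.3% were higher and 19.4% were lower. The lower match, Psote02G0329200, had been chosen as an early gene and was at most at 3 FPKM. Psote04G0303100, with the same Arabidopsis match as Psote02G0329200, was at 12, 19, 22 and 30 FPKM over the 4 stages (log2 difference 1.25), and Psote06G0444200 was listed at 0 FPKM throughout. The lectins on the list, carbohydrate-binding proteins that are abundant in many legume seeds, were at most 7 FPKM in any stage. Of 5 lectin matches 3 were listed at 0 FPKM throughout, as were 7933 of the 30392 genes of the table. Psote04G0268000 was at 5, 7, 4 and 1 FPKM.

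**Figure D4:**
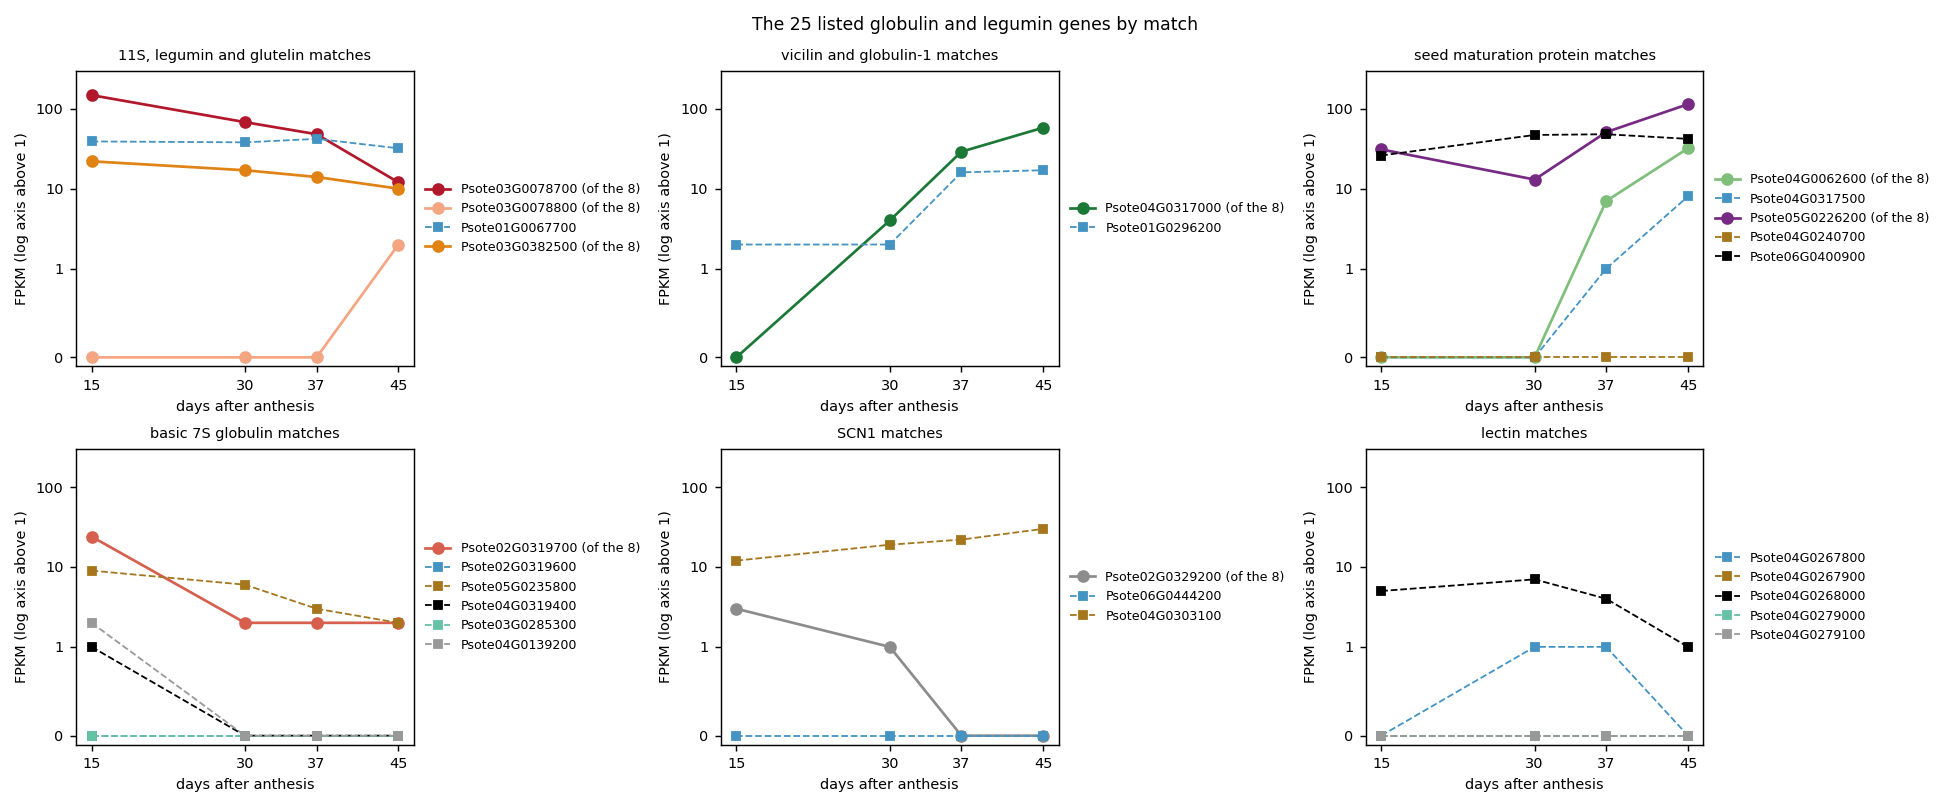
Levels in FPKM (vertical axes, logarithmic above 1 and linear below) of the 25 listed globulin and legumin genes against days after anthesis, grouped by the protein they were matched to. Circles with solid lines are the 8 genes and squares with dashed lines the other 17; the legumin match Psote01G0067700 stays between 32 and 42 FPKM while Psote03G0078700 goes from 148 to 12 FPKM.

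The late genes were set beside 18 seed markers, since the methods of the study mention seed tissue. The markers were homologues of ABI3 and ABI5, of the seed protein P34, of lectins and of the pea albumins PA1 and PA2. Their summed level was 26 FPKM on Day 15, 25 FPKM on Day 30, 52 FPKM on Day 37 and 57 FPKM on Day 45. Of the 18, 4 were higher on Day 45 than on Day 15, 2 were lower, 4 were neither and 8 were listed at 0 FPKM throughout. Among all measured genes, 14.3% were higher and 19.4% were lower. Without the PA2 albumin Psote04G0281900, at 0, 2, 26 and 10 FPKM, the sum of the other 17 was 26, 23, 26 and 47 FPKM, so that this gene, set apart after its values were seen, made most of the difference between Day 30 and Day 37. The ABI3 homologue Psote05G0109800 was listed at 0 FPKM on Day 15 and Day 30 and at 1 FPKM on Day 37 and Day 45. It counted as higher, but rounding could undo this call. The ABI5 homologue Psote05G0281300 was at 2 FPKM on Day 15 and then at 1 FPKM. The ABI5-group genes Psote03G0368000 and Psote04G0225200 were at 3, 3, 3 and 2 FPKM and at 2, 0, 1 and 1 FPKM. The P34 homologue Psote03G0119900 was at 0, 5, 1 and 23 FPKM, whereas the PA1 albumin Psote01G0210100, the highest of the markers on Day 15, was at 14, 6, 13 and 4 FPKM. LHCB6, a light-harvesting protein gene of green tissue (Psote03G0131300), was at 283, 267, 264 and 128 FPKM. The secondary wall gene CESA8 (Psote03G0120900) was at 7, 12, 11 and 9 FPKM and was neither higher nor lower. The lectins, which are on the list of 25 as well, and the 6 listed PA2 genes, of which 4 were at 0 throughout, did not move as a block. The part of seed tissue in the levels of the 8 genes was not tested. The labels name pod only, so that it is not known whether seeds were in the libraries. A different share of cells and a different amount of RNA per cell cannot be told apart in RNA from a mixed tissue.

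Of the 28 genes that lay within 2 places on either side, 20 were measured, of which 3 were higher, 5 were lower and 12 were neither from Day 15 to Day 45, where 14.3% of all measured genes were higher and 19.4% were lower. Of these movers, 4 had the direction of the gene they lay beside. The largest difference among them was that of Psote04G0062400, which ends 48108 bp before the seed maturation gene Psote04G0062600 and for which no annotation was at hand. It was listed at 0 FPKM on Day 15 and was at 9 FPKM on Day 30, 80 FPKM on Day 37 and 296 FPKM on Day 45. Its log2 difference of 8.21 was the sixth largest of all measured genes, and it was above the seed maturation gene at each stage from Day 30 on. Next to the vicilin-like gene, Psote04G0317200 was at 1, 1, 6 and 10 FPKM, in the same direction, and Psote04G0316900 was at 12, 1, 1 and 0 FPKM, in the opposite direction. Beyond Psote05G0226200, Psote05G0226400 was at 129, 73, 40 and 24 FPKM, again in the opposite direction.

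The time courses were also set against those of annotated genes, by the root mean square difference of log2(FPKM+1) over the 4 stages after subtracting the mean of each gene. With 4 points per gene, which come from shared libraries, such likeness is a description only. The course nearest to Psote03G0078700 among 273 annotated genes at 5 FPKM or more was that of Psote02G0161900, matched to the transcription factor SPL13 (36, 13, 9 and 2 FPKM, difference 0.123). It was followed by Psote03G0189000, matched to flavanone 3-hydroxylase, an enzyme of flavonoid synthesis (129, 75, 42 and 15 FPKM, difference 0.214). Of all 17487 genes at 5 FPKM or more, 232 lay within 0.5 of the 11S gene.

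The late genes had fewer genes close to them. Within 0.5 lay 9 genes for the vicilin-like gene, 4 for Psote04G0062600 and 33 for Psote05G0226200. The annotated genes nearest to the vicilin-like gene were Psote04G0199900, matched to the ABC transporter ABCC4 (1, 19, 47 and 88 FPKM, difference 0.559), and Psote01G0130800, matched to the beta-glucosidase BGLU46 (2, 16, 31 and 97 FPKM, difference 0.674). For Psote04G0062600 they were the PA2 albumin gene Psote04G0279400 (0, 0, 1 and 14 FPKM, difference 0.842) and the vicilin-like gene itself (difference 0.910). For Psote05G0226200 they were Psote03G0413200, matched to the transcription factor WRKY40 (2, 2, 5 and 8 FPKM, difference 0.548), and the seed maturation match Psote04G0317500 (difference 0.566).

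Of the QTL genes, Psote02G0319700 had 391 genes within 0.5, the nearest annotated ones being Psote03G0112600, matched to the acyl-activating enzyme AAE16 (5, 0, 0 and 0 FPKM, difference 0.205), and Psote09G0111300, matched to the glycosyltransferase UGT88A1 (34, 4, 4 and 2 FPKM, difference 0.301). The course of Psote03G0382500 was the least particular, with 10034 of the 17487 genes within 0.5. Its nearest annotated genes were Psote02G0349600, matched to the gibberellin enzyme KAO (24, 16, 15 and 11 FPKM, difference 0.0855), and Psote05G0353100, matched to the proton pump AHA10 (57, 52, 41 and 31 FPKM, difference 0.0880).

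Over the whole table, the summed FPKM of a stage lay between 709255 and 795780, and between 20573 and 21316 genes were above 0. Of the 30392 genes, 7933 were listed at 0 FPKM in all stages. Rescaling each stage to the same sum changed the levels by factors between 0.955 and 1.07, which ended no call of the 8 genes between Day 15 and Day 45.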

How the data were processed

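RNA-seq libraries of FP15 pods (3 per stage, 12 in all) were deposited as a table of 1 FPKM value per gene and stage, 4 columns in all. Per the submitters' processing notes, fastp, HISAT2 2.0.5 and featureCounts 1.5.0-p3 had been used. The deposited FPKM values are whole numbers throughout and were handled as a score, that is, FPKM rounded by the authors. For the way in which the 3 libraries of a stage were merged, the method was not given in the sources used here, and the depth behind each value is unknown, so that no interval or floor for counting error was computed. DESeq2, named in the methods of the study, needs counts and was not used. No column of other samples was present (0 columns).

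Genes at 1 FPKM or more in a stage counted as measured. Changes were differences of log2(FPKM+1), with a pseudocount of 1, which understates changes of low genes, and a gene was called higher or lower at 1 or more on that scale (2-fold). Rounding limits moved each value by 0.5 FPKM. The genes and lists were chosen with earlier results of these data known. The text names all 8 genes, their listed homologues, the 2 genes on each side, the 2 annotated genes of nearest pattern for each gene reaching 10 FPKM, and ABI3, ABI5 and P34 homologues as seed-tissue genes. Further genes were named after their values were seen: Psote05G0175000, Psote01G0296200, Psote05G0235800, Psote04G0139200, Psote04G0319400, Psote04G0240700, Psote04G0268000, Psote04G0281900, Psote01G0210100, Psote03G0131300 and Psote03G0120900. Gene matches and QTL positions were taken from the annotation lists of the study. Alternatives were pseudocounts of 0.1 and 0.5, other filters (none, 5 FPKM), 3 rescalings, rounding against the change, a 4-fold call and shares without single genes. Scripts (Python 3.11.15, numpy 2.4.6, pandas 2.3.3, matplotlib 3.10.9) were tested on simulated data.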

Additional observations from a re-analysis of the deposited data

How the results depend on the processing

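No paired analysis was possible because the table holds 1 value per stage, and for the same reason no replicate could be left out. No change of the 8 genes reversed under any alternative. Pseudocounts of 0.1 and 0.5 and the lack of a filter could not change a 2-fold call between whole numbers, so that they say nothing about stability. Values moved by rounding against the change took Psote03G0078800 to 0.74 both from Day 15 and from Day 37 to Day 45, Psote03G0382500 to -0.97 from Day 15 to Day 45, and Psote02G0329200 to -0.49 up to Day 30 and 0 up to Day 37, all short of 2-fold. Psote02G0329200 was also short of it after quantile normalization (-0.78 up to Day 30) and with each stage at the same sum (-0.98 up to Day 37), which took the vicilin-like gene past it (1.05 from Day 37 to Day 45).

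Counts of calls moved more. They are given as higher and lower, and "up to" a day means the step from the stage before. Rounding against the change left 2093 and 2567 of all measured genes from Day 15 to Day 45, 1269 and 1554 up to Day 30, 150 and 97 up to Day 37, and 175 and 249 up to Day 45. In the list of 25 it left 5 lower from Day 15 to Day 45, 1 higher and 3 lower up to Day 30, 0 lower up to Day 37 and 1 lower up to Day 45. A 4-fold call left 1020 and 1449 of all genes from Day 15 to Day 45, 530 and 688 up to Day 30, 36 and 11 up to Day 37, and 47 and 51 up to Day 45. In the list it left 4 and 3, then 1 and 1, 3 and 0, and 2 and 0 in the same order. Among genes at 5 FPKM or more, 2729 were lower from Day 15 to Day 45 and 1783 up to Day 30, 282 were higher and 315 lower up to Day 37, and 271 were higher and 624 lower up to Day 45. In the list, 5 were lower from Day 15 to Day 45, 1 was higher and 3 were lower up to Day 30, and 0 were lower up to Day 37. With each stage at the same sum, 1362 genes (1 of the list) were higher up to Day 30, 214 were higher and 281 lower (0 of the list) up to Day 37, and 364 were lower up to Day 45. That rescaling put the median of all measured genes at -0.11 on the log2 scale up to Day 30 and ended no call of the 8 genes for that step. Scaling by median of ratios gave 219 higher up to Day 37 and 385 lower up to Day 45. Quantile normalization gave 3276 and 3321 of all genes from Day 15 to Day 45 and 2144 and 2117 up to Day 30. In the list it left 7 lower from Day 15 to Day 45 and 4 lower up to Day 30.

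The shares depended on which genes were summed. Without Psote02G0329200, Psote03G0078700 held 65.8% at Day 15. Without Psote03G0078700, the vicilin-like and seed maturation genes held 38.8% at Day 15 and 93.6% at Day 45. Without Psote05G0226200, an alternative chosen after seeing the data, Psote03G0078700 held 75.1% at Day 15 and 10.3% at Day 45, and the vicilin-like gene and Psote04G0062600 held 0% and 77.6%. Since the spread between plants is unknown, none of the differences could be set against it.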
